A study of Rattus norvegicus with 4 samples.

Results

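Solute carriers are the membrane proteins that move amino acids, sugars, ions, metals, organic acids and vitamins across the plasma membrane and the membranes of organelles. Members were all genes with a probe set of a single gene symbol that begins with Slc, a family number, the letter a and a member number, without Slc12a2, Slc4a4, Slc4a7 and Slc7a11. The rule found 267 genes of 13810 named on the 2 array designs used, that is 215 of 10411 at day 1 and 76 of 5667 at day 3. It used symbols only, no measured values. Slc4a1ap and Slc7a6os match the letters but are not carriers, and they are kept apart in the groups below.

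The tissue was the lateral wall of the rat cochlea, taken from the upper basal turn. Its spiral ligament fibrocytes and the adjoining stria vascularis recycle potassium towards the endolymph, the potassium-rich fluid that bathes the hair cells. Ion carriers and the sodium pump drive this flow, and the Slc25 family exchanges metabolites across the inner mitochondrial membrane. Female Sprague-Dawley rats of 180 to 210 g, aged 8 to 10 weeks, were infused at the left round window niche with saline or with 300 mM 3-nitropropionic acid (3-NP), a poison of succinate dehydrogenase, the respiratory complex II. Tissue was taken 1 day or 3 days later, which gave 4 groups of 1 array each. The opposite cochlea of the animals was destroyed surgically. The labels do not say how many animals stand behind an array. The dissection is described by one label field as leaving out the stria vascularis.

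Each group is a single array, so differences could not be set against a spread between replicates and nothing was tested. Values are MAS5 signals, the Affymetrix summary of a probe set's brightness on a linear scale. Ratios are log2 ratios of 3-NP over saline minus the median over all measured genes of that day, which was 0.44 at day 1 and 0.10 at day 3. A value of 1 in size, a 2-fold difference from the median gene, was used to call a gene higher or lower. Signals under the 30th percentile of an array were set to that floor (day 1: 17.1 for the saline array, 22.0 for the 3-NP array, and day 3: 9.22 and 9.85). A gene was measured when its signal reached the 50th percentile in at least 1 array of the day. From genes with several probe sets, the technical SD of the ratio from 1 probe set was estimated at 0.35 (day 1) and 0.47 (day 3), a spread that leaves out animals and dissections. Day 1 and day 3 were run on different array designs, so only ratios are set side by side.

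At day 1, 105 of the 215 solute carrier genes were measured, 53 lay below the filter and 57 were at the floor in both arrays. Relative to the median gene 9 of the 105 were at least 2-fold higher in 3-NP, where 7.76% of all 6533 measured genes were, and 8 were at least 2-fold lower, where 6.47% of all measured genes were. The shares of solute carriers, 8.57% and 7.62%, were close to these backgrounds. Their median of 0.04 was close to that of all genes, which centring sets to 0. At day 3, 51 of 76 were measured, 11 lay below the filter and 14 were at the floor in both arrays. There 5 were at least 2-fold higher, against a background of 9.21%, and 2 were lower, against 8.18%, with a median of -0.07 that was 0.03 as deposited. At 1.5-fold, 21 members were higher and 20 lower at day 1 (backgrounds 17.1% and 16.6%), and 10 and 7 at day 3 (19.1% and 19.9%). As deposited, without centring, 23 members were higher and 6 lower at day 1 (backgrounds 17.9% and 2.62%), and 6 and 2 at day 3 (10.9% and 6.42%). The higher genes then made up 79.3% of the called members at day 1, against 52.9% after centring. The single carriers behind these counts are given below by substrate, and the same backgrounds apply to the counts of each group.

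**Figure D1:**
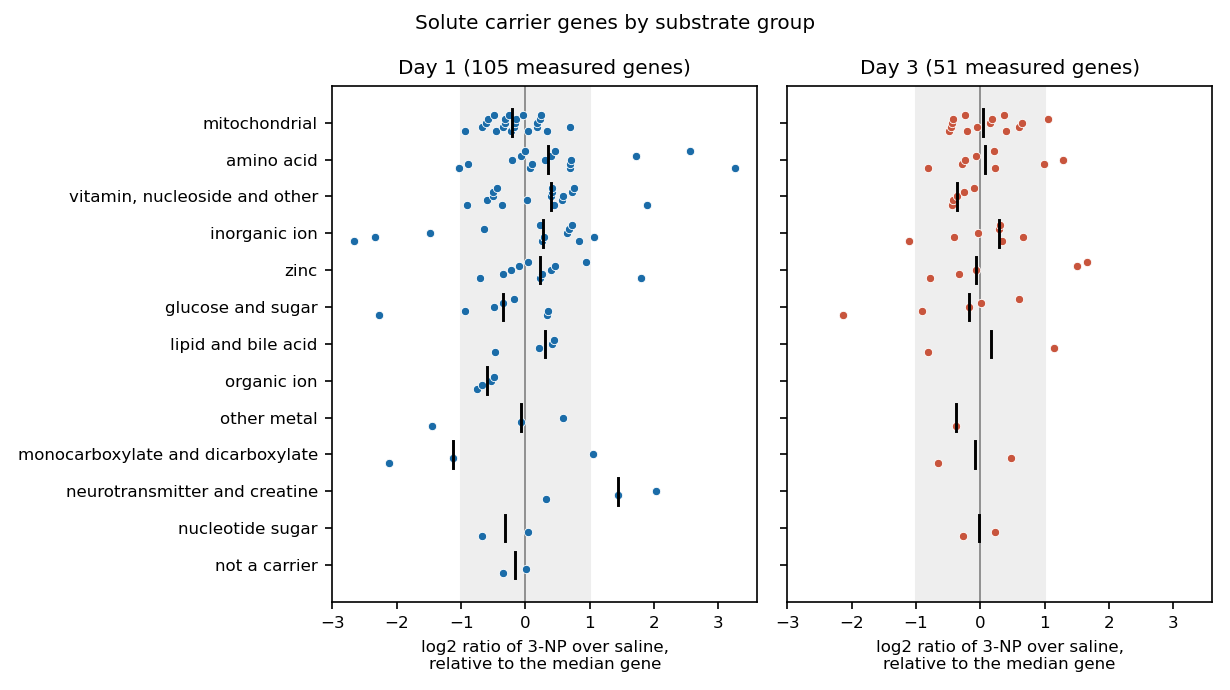
Relative log2 ratios of 3-NP over saline (x axis) for each measured solute carrier gene, a point each, by substrate group (y axis) at day 1 and day 3; black ticks are group medians and the grey band spans less than 2-fold. Most points lie inside the band, with Slc1a5 at 3.25 on the right and Slc4a10 at -2.66 on the left at day 1.

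Among amino acid carriers at day 1, the highest ratios belonged to carriers of glutamine, glutamate and glycine. Of 33 on the array 16 were measured, and 11 lay above and 5 below the median gene, with a median of 0.36. The group had 3 genes at least 2-fold higher and 1 lower, where 7.76% and 6.47% of all measured genes were. Slc1a5, the sodium-dependent exchanger ASCT2 that carries glutamine and other neutral amino acids, gave 22.8 on the saline array and 295 on the 3-NP array. That is a 9.54-fold difference from the median gene, a relative log2 ratio of 3.25, or 2.28 when the floor was raised to the 50th percentile, since the saline signal lay just above the floor. Slc1a1, the glutamate transporter EAAC1, had 12.2 in saline, below the floor, and 136 in 3-NP, so it was at least 5.86-fold higher. Its other probe set had 12.3 and 113, at least 4.86-fold higher. For Slc6a9, the glycine transporter GlyT1, the signals were 46.8 and 208, a 3.28-fold difference, and its other 2 probe sets, both under the filter and with saline at the floor, had bounds of 1.06 and 1.03 on the log2 scale. Slc1a3, the glial type glutamate transporter GLAST, stood at 220 and 311 with a relative log2 ratio of 0.06 and 0.24 by another probe set. So within the Slc1 family 2 members were far apart between the arrays and GLAST lay within the technical SD of the median gene. The saline signals of Slc1a5 and Slc1a1 were under the filter (44.9), so both genes were measured through the 3-NP array only. Under other processing choices the log2 ratio of Slc1a1 went down to 1.16.

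The carriers that exchange large neutral and cationic amino acids had smaller ratios. Slc3a2, the heavy chain CD98 that brings Slc7 light chains to the cell surface, had 700 in saline and 1530 in 3-NP (0.69). Of its light chains Slc7a5 (LAT1) had 68.7 and 128 (0.46), while Slc7a8 (LAT2) went the other way, with 110 and 72.7, a ratio of -1.03 that was -0.59 as deposited. Slc7a6, a further light chain named after its values were seen, was at 0.69. The arginine and lysine transporter gene Slc7a1 had 148 and 326 (0.70, and 0.37 by another probe set). Slc38a2, the sodium-coupled neutral amino acid transporter SNAT2, had 420 and 754 (0.41). The taurine transporter gene Slc6a6 was at 0.31. The other 5 measured members ran from -0.89 for Slc38a5 to 0.10 for Slc7a3, with Slc38a10 (-0.20), Slc3a1 (-0.06) and Slc38a1 (-0.01) between. All ratios of this paragraph other than those of Slc7a8 and Slc38a5 were within 2 technical SDs (0.70) of the median gene, with Slc7a1 at the edge.

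At day 3, 8 of 13 amino acid carriers on the array were measured, with 4 above and 4 below the median gene and a median of 0.07. Slc1a4, the neutral amino acid transporter ASCT1 and a close relative of Slc1a5, was at 14.9 with saline and 38.9 with 3-NP, 2.43-fold apart (1.28, and 0.96 with the floor at the 50th percentile). Slc6a17, a vesicular amino acid transporter of neurons, had 366 and 782, a 1.99-fold difference just under the threshold, and another probe set gave 1.05. Slc38a9, the lysosomal arginine sensor of the mTORC1 pathway, was lowest, at -0.81 with signals of 28.5 and 17.5. The remaining 5 lay between -0.28 and 0.22. Slc1a5, Slc1a1 and Slc6a9 have no probe set on the day 3 design and Slc1a4 none on the day 1 design, so the same gene cannot be followed here.

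Many amino acid carrier genes are known targets of the transcription factor ATF4, which binds the amino acid response element in cells short of amino acids. The 250 bases before the RefSeq start were searched for its core TGATGNAA on both strands. Promoters were matched for 226 of the 267 members and for 15 of the 23 members at least 2-fold apart. Slc1a5 had no matched promoter and was not searched. The core stood in 3 of the 20 matched amino acid carriers that were measured, in 3.10% of all matched members and in 3.58% of all 27457 genes with a promoter. The 3 are printed to show what the arrays measured beside the letters, 5′ to 3′ on the gene's strand from RefSeq on GRCr8, with the core in capitals. Slc1a4 is at chr14:98761673-98761812 (minus strand), Slc7a1 at chr12:11664238-11664487 (plus strand) and Slc38a1 at chr7:129681525-129681554 (minus strand). The stretch of Slc38a1 is short because it lies inside the annotated span of the gene.
Slc1a4: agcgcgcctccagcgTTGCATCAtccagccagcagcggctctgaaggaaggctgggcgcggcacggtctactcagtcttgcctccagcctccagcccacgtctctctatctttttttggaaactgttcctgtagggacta
Slc7a1: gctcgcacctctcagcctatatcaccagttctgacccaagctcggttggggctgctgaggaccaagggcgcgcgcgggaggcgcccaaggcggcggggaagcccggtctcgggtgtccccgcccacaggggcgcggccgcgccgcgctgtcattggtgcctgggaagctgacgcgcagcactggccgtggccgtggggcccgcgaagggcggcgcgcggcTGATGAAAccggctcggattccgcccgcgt
Slc38a1: gggggaaactcTGATGCAAccaaccagtcc
The core of Slc1a4 lies on the opposite strand, beginning 235 bases before the start, and those of Slc38a1 and Slc7a1 begin 142 and 30 bases before it. The genes with the core differed in ratio, at 1.28 for Slc1a4 at day 3 and 0.70 for Slc7a1 and -0.01 for Slc38a1 at day 1. A match of letters is a description of the window only.

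Vesicular glutamate transporters, which load synaptic vesicles in neurons, were higher at day 1. Their saline signals lay under the filter (44.9), so they were measured through the 3-NP array only. Slc17a6 (VGLUT2) was at 33.7 with saline and at 187 with 3-NP, 4.10-fold apart. Slc17a7 (VGLUT1) had 40.0 and 147, a 2.72-fold difference, and a dimmer probe set under the filter, whose saline signal was floored, had a bound of 0.99. The creatine transporter gene Slc6a8 was at 0.32, with 593 and 1004, and at 0.81 by another probe set. These were the 3 measured of 12 neurotransmitter and creatine carriers, and 7 were at the floor in both arrays. Beside them, the neuron and Schwann cell markers had 4 of 6 genes on the array, all measured. Their summed signal was 1420 in saline and 2046 in 3-NP, a median ratio of 0.28, and 1 of 4, Prph at 1.54, was at least 2-fold higher. The saline signal of Prph, 28.4, was under the filter too, so Prph was measured through the 3-NP array only. Nefl was at 0.24 and Snap25 at -0.13. The part of neuronal RNA in the Slc17 values was not tested. In tissue RNA, more cells of a type and more RNA per cell cannot be told apart, nor can fewer cells and less RNA.

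Of the sugar carriers, 7 of 14 were measured at day 1, and the main glucose transporter lay near the median gene while a myo-inositol carrier was lower. The group median was -0.35 but 0.09 as deposited, with 0 genes at least 2-fold higher and 1 lower. With the filter required in both arrays the median was -0.18, and without the filter -0.12. Slc2a1 (GLUT1), the glucose transporter of capillaries and most cells, had 684 in saline and 1168 in 3-NP (0.33). Slc2a13 (HMIT), a proton-coupled myo-inositol transporter of the same family, had 243 and 68.1, a 4.85-fold difference at -2.28, and its other probe set, with 60.3 and 36.2, was at -1.18. The intracellular glucose transporter gene Slc2a8, measured through the saline array only, had 78.3 and 55.5 (-0.93). The other 4 lay between -0.49 and 0.34, with the glucose 6-phosphate transporter gene Slc37a4 at -0.35. Slc2a3 (GLUT3), high in neurons, lay below the filter, at 14.8 and 27.2 by its brighter probe set.

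At day 3 the lowest ratio of all measured members was that of Slc5a11, the sodium-coupled myo-inositol transporter SMIT2. Its signal was 92.0 with saline and 22.5 with 3-NP, 4.39-fold apart at -2.13. Slc5a3 (SMIT1), which carries the same substrate, had 1536 and 1453 (-0.18), although a dimmer probe set with 14.6 and 27.8 gave 0.82. Among the myo-inositol carriers, a set chosen after their values were seen, Slc2a13 at day 1 and Slc5a11 at day 3 were thus lower and Slc5a3 lay within the technical SD by its bright probe set. Slc2a9, a urate transporter, was at -0.90 with 22.9 and 13.1, Slc2a6 at 0.01 and Slc45a1 at 0.60. The median over these 5 was -0.18.

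The inorganic ion carriers ran from -2.66 to 1.07 at day 1 and held 3 of the 8 members at least 2-fold lower. Of 37 on the array 12 were measured, with 8 above and 4 below the median gene and a median of 0.27. Of the 12, 1 was at least 2-fold higher and 3 lower, where 7.76% and 6.47% of all measured genes were. Slc4a10, a sodium-coupled bicarbonate transporter, was at 418 with saline and 89.6 with 3-NP, 6.33-fold apart and the lowest ratio of the members. Slc26a4, the anion exchanger pendrin that secretes bicarbonate into endolymph and is mutated in Pendred syndrome, had 73.0 and 35.4 (-1.48). With the floor at the 50th percentile the pendrin ratio was -0.70. The anion exchanger genes Slc4a3 and Slc4a2 were at -0.64 and 0.28.

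Within the Slc41 family, which carries magnesium, Slc41a3 was at 470 with saline and 126 with 3-NP, 5.06-fold apart at -2.34. Its relatives lay above the median gene, within 2 technical SDs (0.70) of it, Slc41a2 at 0.65 with 107 and 227 and Slc41a1 at 0.26 with 133 and 216. Both phosphate carriers of the Slc20 family were above the median gene. Slc20a2 (PiT2) had 67.3 and 192 (1.07, and 0.97 by another probe set), and Slc20a1 (PiT1) had 311 and 747 (0.83). The potassium chloride cotransporter gene Slc12a7 (KCC4), whose loss causes deafness in mice, had 519 and 1162 (0.72), and Slc12a9 was at 0.68. The sodium proton exchanger gene Slc9a8 was at 0.23.

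At day 3, 7 of 13 ion carriers were measured, with a median of 0.29, 0 genes at least 2-fold higher and 1 lower. Slc4a11, a transporter of the bicarbonate family whose mutations cause corneal dystrophy with hearing loss, was at 7504 with saline and 3723 with 3-NP, 2.16-fold apart at -1.11. It was under 2-fold after lowess centring (-0.98) and after quantile normalization (-0.79). The potassium-dependent sodium calcium exchanger genes Slc24a4 and Slc24a2 were at 0.66 and 0.34, the endosomal proton exchanger gene Slc9a9 at -0.41 and Slc26a6 at -0.04. Slc12a7 was at 0.30 and Slc41a2 at 0.29.

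Marker lists of the cell types in and around the wall went in both directions. Their summed signals are as deposited, without centring. At day 1 the 4 spiral ligament fibrocyte markers measured of 8 listed had a median of -1.74 with 2 at least 2-fold lower, and the signals of the listed markers on the array summed to 5832 with saline and 2201 with 3-NP. The 4 stria marginal cell markers measured were each at least 2-fold lower, with summed signals of 2322 and 1084, in tissue labelled as taken without the stria. At day 3 the fibrocyte list had a median of -0.82 over 3 genes, with Coch at 6548 and 5677, and summed signals of 7310 and 6093. Over the 6 bone or cartilage markers, all at least 2-fold lower at day 1, the sums were 1465 and 466. Omd, Ibsp and Acan of these were measured through the saline array only. Endothelial markers had 208 and 565, with 2 of 3 measured at least 2-fold higher. Of these Plvap, at 5.68 in saline, below the floor, was a bound. Macrophage or monocyte markers had 262 and 1088, with 2 of 4 measured at least 2-fold higher. In the macrophage or monocyte list Lgals3 alone had 97.9 and 736 (2.47). Cd14 was at 1.54, measured through the 3-NP array only, Cd68 at 0.34 and Csf1r at -0.06. Ptprc and Aif1 of the last list were at the floor in both arrays at day 1, as were the muscle markers Acta1, Myh4 and Tnnt3. The neutrophil list had sums of 139 and 184, with 0 of 2 apart and a median of -0.15. The erythroid list had 3832 and 7522, with 0 of 2 apart and a median of 0.63. The only measured marker of intermediate cells at day 1, Mlana, was at -1.29, while Kcnj10 was at the floor in both arrays. Cldn11 of basal cells was at -0.86. At day 3 Bsnd was at -1.93, Tyr at -1.85, Tyrp1 at least 7.02-fold higher, Pmel at 0.15 and Tek at -0.66. Both macrophage markers measured, Cd163 and Mrc1, were at least 2-fold lower. Bsnd and Cd163 were measured through the saline array only. The part of cell composition in the carrier ratios was not tested.

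**Figure D2:**
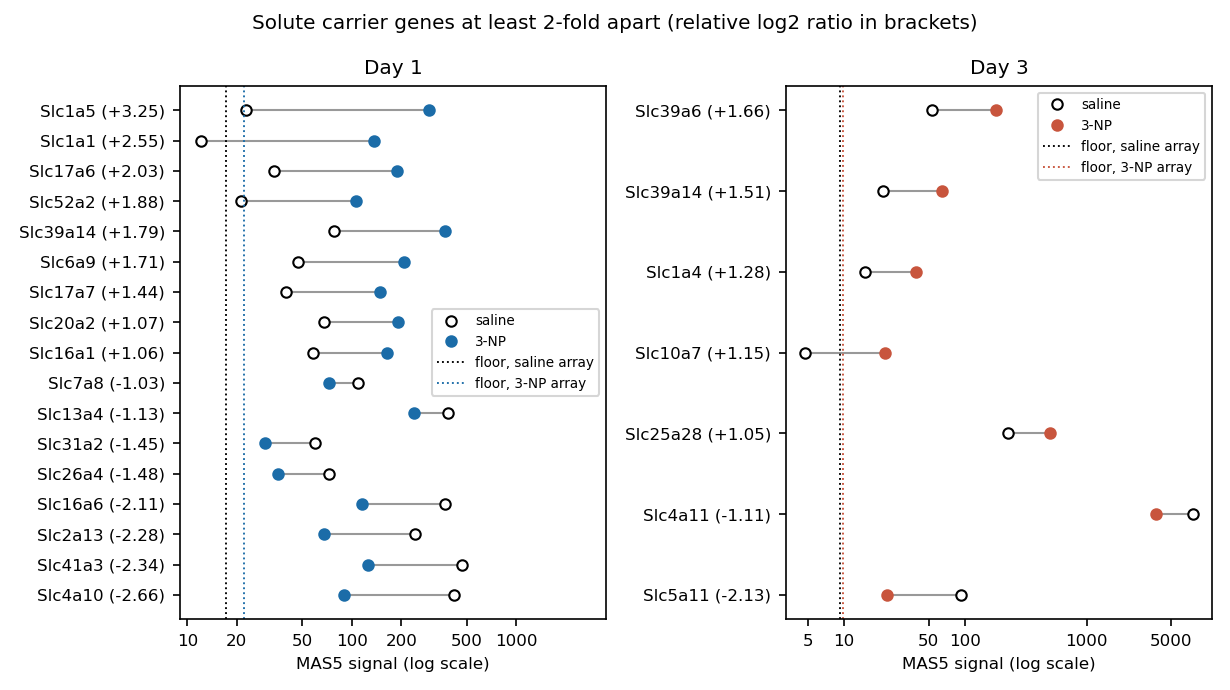
MAS5 signals on a log axis (x axis) in saline (open) and 3-NP (filled) for the 17 solute carrier genes at day 1 and the 7 at day 3 that were at least 2-fold apart relative to the median gene (y axis, relative log2 ratio in brackets); dotted lines are the floors. Slc1a1 at day 1 and Slc10a7 at day 3 have saline signals below the floor, so their ratios are bounds.

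Zinc enters the cytosol through the Slc39 (ZIP) family and leaves it through the Slc30 (ZnT) family. Slc39a14 (ZIP14), an importer of zinc, iron and manganese that inflammatory cytokines induce in liver, was at least 2-fold higher in 3-NP on both days. At day 1 it was at 78.1 with saline and 366 with 3-NP, 3.46-fold apart, and at day 3 it had 21.0 and 63.8, a 2.84-fold difference by a different probe set. No other member measured on both days was at least 2-fold apart on each of them. Slc39a6 (ZIP6), measured at day 3 only, had 52.8 and 179, a 3.16-fold difference, and its other probe sets lay on the same side, at 0.95 and 0.61. Its close relative Slc39a10 (ZIP10), measured at day 1 only, had 64.1 and 167 and stood just under 2-fold, at 0.94.

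The other importers were nearer the median gene. At day 1 Slc39a8 was at 0.40, Slc39a1 at 0.26, Slc39a11 at 0.23, and the genes of the endoplasmic reticulum and Golgi importers, Slc39a7 and Slc39a13, at -0.23 and -0.35. Exporters ran from -0.70 for Slc30a9 to 0.46 for Slc30a5, with Slc30a4 at -0.10 and Slc30a6 at 0.04. None of the 4 was 2-fold apart, and Slc30a1, the plasma membrane exporter, was not measured. Over the 11 measured of 17 zinc carriers the median was 0.23, with 1 higher and 0 lower. At day 3, 5 of 8 were measured, with a median of -0.07 that was 0.03 as deposited, 2 higher and 0 lower. Slc39a2 was at -0.78, Slc39a3 at -0.34 and Slc30a9 at -0.07. Mt2A, a metallothionein that binds zinc in the cytosol, was at 1624 with saline and 9070 with 3-NP at day 1, 4.12-fold apart. The metal response element core was searched as TGCACNC or TGCGCNC on both strands of the same windows. Slc39a14 had no matched promoter and was not searched. The core stood in 6 of 13 matched measured zinc carriers, in 31.4% of matched members and in 22.5% of all genes with a promoter. Those 6 ran from -0.35 (Slc39a13) to 0.46 (Slc30a5) at day 1. The core also stood in 2 of 8 matched members at least 2-fold higher and in 4 of 7 lower. A match of letters describes the window only.

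Of other metal carriers, Slc31a2, a copper transporter of endosomes, was at 59.6 with saline and 29.6 with 3-NP at day 1 (-1.45), but -0.41 with the floor at the 50th percentile, and was at -0.38 at day 3 with 51.7 and 42.7. The 3 measured probe sets of Slc31a1, the copper importer of the plasma membrane, disagreed, at -0.07, 0.93 and -0.66. Slc11a2, the divalent metal transporter DMT1, had 99.2 and 201 (0.58, and 0.23 by another probe set). The iron exporter gene Slc40a1 lay below the filter.

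The mitochondrial Slc25 carriers formed the largest and the tightest of the groups with over 10 measured genes at day 1. Of 30 on the array 22 were measured, none was 2-fold apart in either direction, and their SD over genes was 0.38 against 0.78 over all measured genes. The SDs were not compared at matched signal. Below the median gene lay 15 of 22, and the group median of -0.20 turned to 0.23 as deposited. The lowest was Slc25a20, which exchanges carnitine and acylcarnitines for fatty acid oxidation, with 140 in saline and 98.8 in 3-NP (-0.94). At the other end Slc25a22, a glutamate carrier, had 72.9 and 159 (0.69).

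The 2 main ADP/ATP translocases lay on opposite sides of the median gene, both within 2 technical SDs (0.70) of it, and their difference was not tested. Slc25a4 (ANT1) had 2158 in saline and 2134 in 3-NP (-0.46), whereas Slc25a5 (ANT2) had 1658 and 2544 (0.18). The phosphate carrier gene Slc25a3 was at -0.16. The aspartate and glutamate carriers of the malate aspartate shuttle, Slc25a12 and Slc25a13, were at -0.32 and -0.61, and its oxoglutarate carrier Slc25a11 at -0.49. Slc25a10, which exchanges dicarboxylates such as malate and succinate for phosphate, had 61.7 and 65.7 (-0.35). The citrate carrier gene Slc25a1 was at 0.24 and the carnitine and basic amino acid carrier gene Slc25a29 at -0.58. The other 11 lay between -0.67 and 0.33.

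At day 3, 14 of 15 Slc25 genes were measured, 7 above and 7 below the median gene, with a median of 0.05 and an SD over genes of 0.49. Slc25a28, which encodes mitoferrin 2 and brings iron into mitochondria, was at 225 with saline and 500.1 with 3-NP, 2.07-fold apart at 1.05. The gene of its relative mitoferrin 1, Slc25a37, had 92.5 and 128 (0.37). Slc25a46, an outer membrane protein of mitochondrial shape, had 498 and 396 (-0.43, and -0.90 by another probe set). The lowest, Slc25a16, was at -0.49. For Slc25a15, the ornithine carrier of the urea cycle, the 2 measured probe sets disagreed, at -0.46 and 0.35. The remaining carriers ran from -0.44 for Slc25a13 to 0.64 for Slc25a41.

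The group of monocarboxylate and dicarboxylate carriers, set by family (Slc13, Slc16 and Slc5a8), had 3 of 11 genes measured at day 1. Relative to the median gene 1 was at least 2-fold higher and 2 lower, where 7.76% and 6.47% of all measured genes were. Slc16a1 (MCT1), which carries lactate, pyruvate and ketone bodies with protons, had 58.0 in saline and 164 in 3-NP (1.06). Slc16a6, of the same family, had 370 and 116, a 4.33-fold difference at -2.11, and its other probe set, with 297 and 132, was at -1.61. Slc13a4, which belongs to a dicarboxylate family but transports sulfate, had 382 and 237 (-1.13, and -0.69 as deposited). Bsg and Emb, the chaperones that bring MCT proteins to the membrane, were at 0.01 and -0.29. At day 3 the only probe set for Slc16a1 lay at the floor on each array. Slc13a5, a citrate transporter, was then at -0.66, and Slc16a13 at 0.48 with a bound of 1.41 by another probe set.

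All 4 measured organic ion carriers of the Slc22 family lay below the median gene at day 1, and below 0 as deposited too, though none was 2-fold apart. Slc22a15 and Slc22a23 were measured through the saline array only. Under the filter lay Slc22a18 at -0.92, Slc22a6 with a bound of -0.53 and Slc22a8 at 0.17. Slc22a15 was at -0.75, Slc22a17, a receptor for lipocalin 2, at -0.67 with 1047 in saline and 890 in 3-NP, Slc22a23 at -0.54 and the carnitine importer gene Slc22a5 (OCTN2) at -0.49. Their median was -0.60, or -0.17 as deposited. None of 4 organic ion carriers on the day 3 design was measured.

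The vitamin, nucleoside and remaining carriers had 16 of 29 measured at day 1, with a median of 0.40 that was -0.05 without the filter on dim genes. Slc52a2, a riboflavin transporter, was at 21.1 with saline and 106 with 3-NP, 3.69-fold apart at 1.88, and 0.79 with the floor at the 50th percentile. Slc44a2, a choline transporter-like protein of inner ear supporting cells, had 299 and 685 (0.76), while Slc44a1 had 284 and 272 (-0.50). The nucleoside transporter gene Slc29a3, of lysosomes, was at -0.91 (-0.47 by another probe set) and those of the plasma membrane transporters Slc29a1 and Slc29a2 were at 0.40 and 0.44. The biotin and pantothenate transporter gene Slc5a6 was at 0.59, the folate carrier gene Slc19a1 at 0.57 and the ascorbate transporter gene Slc23a2 at 0.03. At day 3 the 5 measured members all lay below the median gene, between -0.44 for Slc66a3 and -0.10 for Slc19a2, the thiamine transporter whose mutations cause anaemia with deafness, which had 169.1 and 168.6.

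Lipid and bile acid carriers included Slc33a1, which brings acetyl-CoA into the endoplasmic reticulum and was below the median gene on both days, at -0.48 and -0.81 (-0.16 by a dimmer probe set at day 3). The fatty acid transport genes Slc27a1 and Slc27a4 were at 0.21 and 0.44 and Slc10a3 at 0.41 at day 1. Slc10a7 at day 3, with 4.77 in saline, below the floor, and 21.9 in 3-NP, was at least 2.22-fold higher, or 0.13 with the floor at the 50th percentile. For Slc35a1, the Golgi transporter of CMP-sialic acid, 3 probe sets gave -0.68, -0.52 and -1.18 at day 1, and Slc35a4 was at 0.04. Slc35a5 and Slc35a3 were at -0.27 and 0.22 at day 3. Slc4a1ap and Slc7a6os, which are not carriers, were at -0.34 and 0.01.

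Of 24 member genes on both designs 13 were measured on both days, and 11 of these were above the median gene each time or below it each time, 84.6%, beside 71.6% of 1246 genes measured on both days. Each day has its own saline array and its own probe sets. Besides Slc39a14, the genes above the median gene on both days were Slc12a7, Slc41a2 and Slc25a39 (0.23 and 0.59). Below it on both days were Slc31a2, Slc33a1, Slc25a13 (-0.61 and -0.44), Slc66a1 (-0.60 and -0.26), Slc30a9, Slc25a23 (-0.14 and -0.21) and Slc25a44 (-0.04 and -0.06). Slc25a23 and Slc25a44 turned positive as deposited at day 1 (0.30 and 0.40), and Slc25a44 and Slc30a9 at day 3 (0.04 and 0.03).

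**Figure D3:**
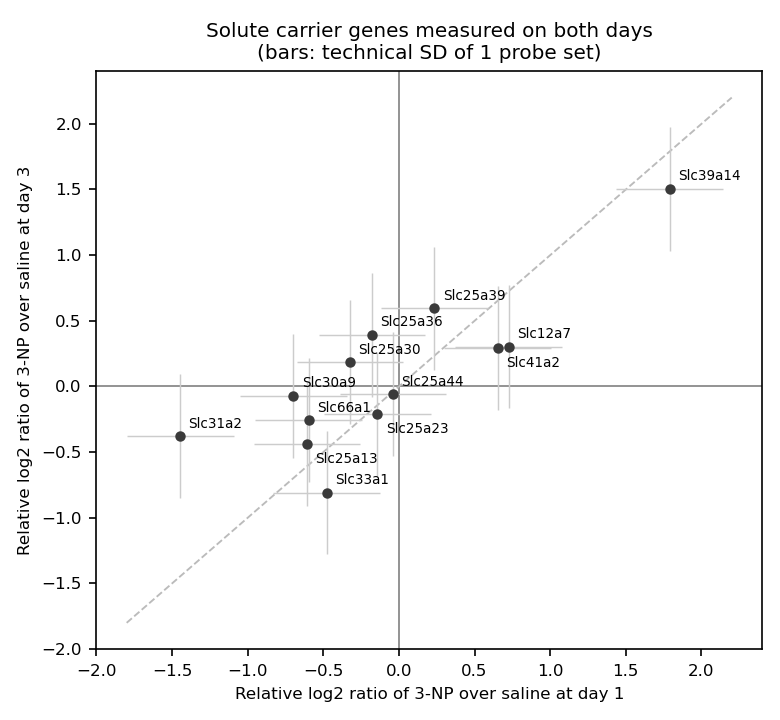
Relative log2 ratios of 3-NP over saline at day 1 (x axis) and day 3 (y axis) for the 13 solute carrier genes measured on both days; bars are the technical SD of 1 probe set (0.35 and 0.47) and the dashed line marks equal values. Slc39a14 stands apart at 1.79 and 1.51, and Slc31a2 is at -1.45 at day 1 and -0.38 at day 3.

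Several measured probe sets were available for 13 members at day 1 and 8 at day 3, and those of 11 and 6 members lay on 1 side of the median gene. The exceptions were Slc31a1 and Slc38a1 (-0.01 and 0.34) at day 1 and Slc5a3 and Slc25a15 at day 3. Among members at least 2-fold apart with more than 1 measured probe set, namely Slc1a1, Slc20a2, Slc16a6, Slc2a13 and Slc39a6, each probe set lay on the same side. The other 19 calls rest on a single measured probe set.

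**Figure D4:**
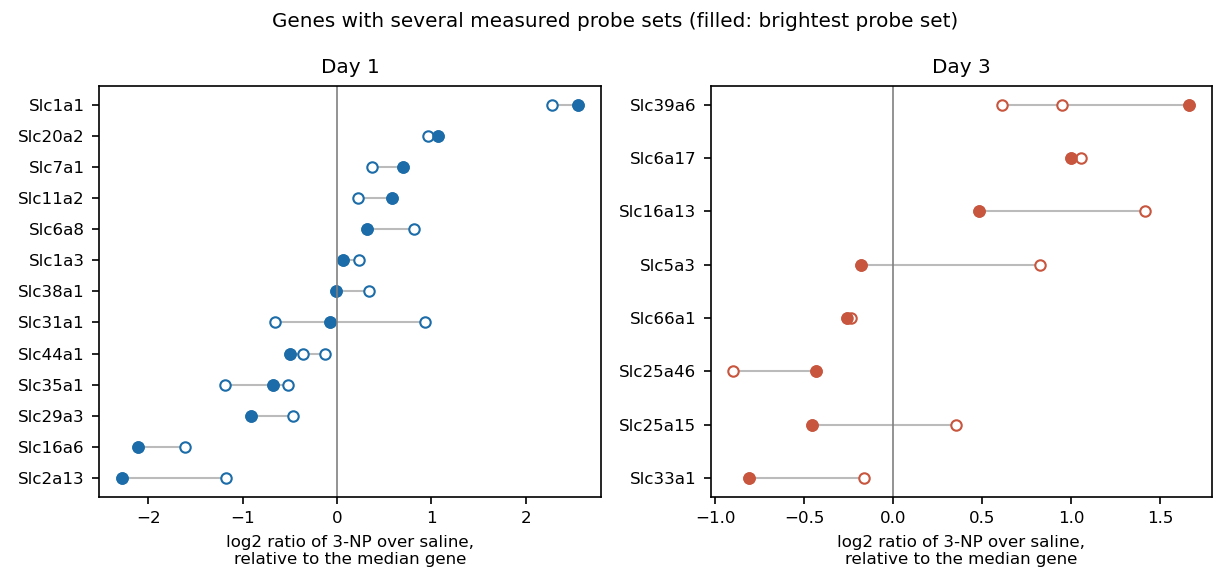
Relative log2 ratios of 3-NP over saline (x axis) of every measured probe set of solute carrier genes that have several (y axis) at day 1 and day 3; filled points are the brightest probe set of a gene. Probe sets of Slc16a6, Slc2a13 and Slc1a1 lie far from 0 on the same side, and those of Slc31a1 and Slc5a3 straddle 0.

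Genes that work with carriers but have no Slc symbol were read from a list of transport partners. Of 26 listed genes 20 were on the day 1 design and 17 measured, with a median of -0.12 whose sign turns as deposited, 1 at least 2-fold higher and 0 lower. Sodium pump subunits, whose gradient drives many carriers, were at -0.57 (Atp1b1), -0.70 (Atp1b2) and -0.62 (Atp1b3). The kinase gene Stk39 (SPAK), which acts on cation chloride cotransporters, was at -0.96 with 635 in saline and 443 in 3-NP. Its relative Oxsr1 was at 0.91 with 65.8 and 168. Hexokinase 1 (Hk1), which traps the glucose that Slc2a1 admits, was at 0.65. The mitochondrial pyruvate carrier genes Mpc1 and Mpc2 were at -0.47 and -0.52, and the outer membrane channels Vdac1, Vdac2 and Vdac3 between -0.43 and -0.03. At day 3 only Atp1b2 of the list was measured, at -1.19.

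The calls closest to the threshold at day 1 were Slc7a8 (-1.03) and Slc16a1 (1.06) inside it, and Slc39a10 (0.94) and Slc25a20 (-0.94) outside. At day 3 Slc25a28 (1.05) and Slc4a11 (-1.11) were just inside, Slc6a17 and Slc2a9 just outside. All lie within 1 technical SD of the threshold.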

How the data were processed

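The authors deposited 1 linear intensity for each probe set and array, and MAS5 is the tool that the submitters' processing notes name. To which target the arrays were scaled, and any detection calls, are not used here. Probe sets were named by GEO's platform table, with symbols brought up to date through RefSeq (GRCr8). Percentiles for the floor and the filter were taken over probe sets outside the controls. The measured probe set that was brightest on average (mean log2) stood for its gene. The design planned ratios relative to the median gene as main values. Centring takes the median gene as equal between the arrays compared. Named genes were all members at least 2-fold apart, the 3 just under 2-fold per direction, the furthest of each other substrate group, members whose probe sets lay on opposite sides by 0.5 each or that were measured on both days, and a panel of 27; further names close a range or were chosen after their values were seen. Members, substrate groups and lists were chosen with earlier results of these data known, and the motifs after the values. The calculation was checked on simulated arrays in which only bright genes were changed, by more than the 2-fold threshold. The calling of dim or near-threshold changes was not checked. Precision is limited by the number of arrays. Python 3.11.15, pandas 2.3.3 and statsmodels 0.14.6 (lowess, span 0.4) were used. Alternatives were no centring, quantile or lowess centring, floors at the 10th and 50th percentile, 2 other filters, the mean of probe sets and a 1.5-fold threshold.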

Additional observations from a re-analysis of the deposited data

Results flagged for a closer look

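Among members measured on both days, 2 mitochondrial carriers lay on opposite sides of the median gene at day 1 and day 3. Slc25a30 was at -0.32 and then 0.19, a difference of 0.51. Slc25a36 was at -0.18 and then 0.39, a difference of 0.57. Each value is within the technical SD of 1 probe set for its day (0.35 and 0.47), the day 1 values turn to 0.12 and 0.26 as deposited, and the difference between days was not tested.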

How the results depend on the processing

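With 1 array per group no replicate could be left out and no paired analysis was possible because no group has a second sample. At day 1 the members at least 2-fold higher numbered 9, but 23 as deposited, 4 of 86 when a signal above the filter was required in both arrays (4.8% of all genes) and 21 at 1.5-fold. Those lower numbered 8, and 20 at 1.5-fold. At day 3 the higher members numbered 5, but 3 with the floor at the 50th percentile (5.64% of all genes) and 10 at 1.5-fold, and the lower ones 2, but 1 under quantile normalization or lowess centring (8.23% and 8.41% of all genes) and 7 at 1.5-fold. At 1.5-fold the backgrounds were 17.1% higher and 16.6% lower at day 1 and 19.1% and 19.9% at day 3. The members' median at day 1 was 0.04, and 0.48 as deposited. Under the other alternatives these counts stayed within 1.5 times and both medians within the technical SD. Of 17 called members at day 1, 8 were measured and at least 2-fold apart the same way under all 8 alternatives of scale, floor, filter and probe set, and of 7 at day 3, 4 were. No called member changed sign under them. Dim signals limit Slc1a1, Slc1a5, Slc52a2, Slc26a4, Slc31a2, Slc1a4 and Slc10a7 most, since 1 of their signals lay near or below the floor. Together with Slc17a6 and Slc17a7, these were the called members that dropped out when the filter was required in both arrays.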
